A study of Homo sapiens with 36 samples.

Results

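Undifferentiated H9 cells carrying a heterozygous RAI1 mutation (labelled RAI1+/−, here HET) were compared with unedited H9 cells (WT) at day 0, the last point before neurons were induced. H9 is an established human embryonic stem cell line. The comparison used the 4 HET and 4 WT day 0 libraries, chosen by their labels, out of the 36 libraries of the series. The 4 day 0 libraries of the homozygous mutant (RAI1−/−, here KO) entered the same fit, and the HET and WT libraries of day 3 and day 7 served as later samples of the same genotypes. All cells were grown on Geltrex in mTeSR Plus, and in the series neurons are induced by doxycycline-dependent expression of NGN2, the proneural factor encoded by NEUROG2. The labels call the replicates biological but do not say how many edited clones stand behind HET or KO, or whether day 0 cells had met doxycycline, so p-values measure the spread between these libraries and a property of 1 clone cannot be told apart from an effect of the RAI1 genotype.

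RAI1 encodes a nuclear protein that reads nucleosomes through a plant homeodomain and works with PHF14 and TCF20. Loss of a single copy causes Smith-Magenis syndrome, a neurodevelopmental disorder, and an extra copy causes Potocki-Lupski syndrome. Embryonic stem cells hold pluripotency through POU5F1, SOX2 and NANOG, while many lineage genes, imprinted alleles and clustered genes such as protocadherins and KRAB zinc finger genes are kept in a silent or allele-restricted state by DNA and histone methylation, a state that can vary between lines and clones.

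Day 0 totals were 31083684 to 40079549 counts per library in WT and 23948079 to 35712067 in HET. The cells carried the markers of their label in both groups: POU5F1 was at 379 ± 67.9 CPM (counts per 1000000 gene counts of a library; SD, n = 4) in WT and 358 ± 132 in HET, SOX2 at 205 ± 23.4 and 208 ± 14.7, and NANOG at 49.9 ± 6.3 and 54.8 ± 16.6. Among the HET and WT libraries, HET replicate 1 stood apart in posterior patterning genes. The 39 HOX genes summed to 307 CPM in it, against 0.672, 4.43 and 11.5 CPM in HET replicates 2 to 4 and 0.499 to 0.98 CPM in WT. KO libraries ranged from 4.935 to 230.4 CPM in that sum. HOXB9 was at 46.5 CPM in HET replicate 1. It was at 35.69 CPM in KO replicate 1 and at 0.3624 to 2.079 CPM in the other KO libraries. HET replicate 1 also had the highest sum of the 17 mesendoderm markers, 133 CPM, against 27.7 to 72.2 CPM in the other HET libraries and 18.2 to 48.8 CPM in WT. Calls that rest on HET replicate 1 are given with and without it.

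RAI1 itself, the gene named by the genotype (on chromosome 17 from 17681473 to 17811453, GRCh38 coordinates of GENCODE 29), was counted between 808 and 1754 times in each of the 8 libraries. Its level was 23.9, 43.1, 42.8 and 34.7 CPM in WT replicates 1 to 4 and 51.4, 43.4, 41.6 and 29.6 CPM in HET replicates 1 to 4. The groups overlapped. The fitted difference, HET minus WT, was 0.21 on the log2 scale (SE 0.25, edgeR adjusted p = 0.812), and an exact two-sided permutation test of the CPM gave p = 0.429. In KO the mean was 40.3 ± 14.1 CPM. Counts per gene thus did not separate the genotypes, and the groups are named by their labels. No difference was called for its partners: PHF14 was at 92.7 ± 7.5 CPM in WT and 99.8 ± 7.57 in HET (adjusted p = 0.561), and TCF20 at 187 ± 7.44 and 184 ± 7.76 (adjusted p = 0.992).

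Across the transcriptome, few genes passed the test for a difference and most that did were higher in HET. Genes with an edgeR adjusted p below 0.05 are referred to as called. Of 20437 genes tested, 333 (1.63%) were called; 249 were higher in HET (1.22%) and 84 lower (0.411%). The HET and WT libraries did not overlap for 332 of the 333, and they did not overlap for 7.85% of all genes tested. Without HET replicate 1 the count was 291. It was 649 with DESeq2 and 689 with a block on replicate number. In the fit reported, the unadjusted edgeR p was below 0.05 for 2372 genes, so genes not called are not shown to be unchanged. Most called genes were protein-coding (250), with 32 long intergenic RNAs. The sizes were uneven. Among the 119 called genes that reached 20 CPM in the higher group, 11 lay below 0.4 on the absolute log2 scale. Between 0.4 and 0.8 lay 37, and between 0.8 and 1.2 lay 46. Only 5 lay between 1.2 and 1.6 and 3 between 1.6 and 2, with 17 beyond 2. The plot of fitted difference against level shows many called genes up to about a doubling or a halving at high level, and a scattered set of very large changes. The threshold for a call removes small differences, so these counts do not show a separate band near 1.

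**Figure D1:**
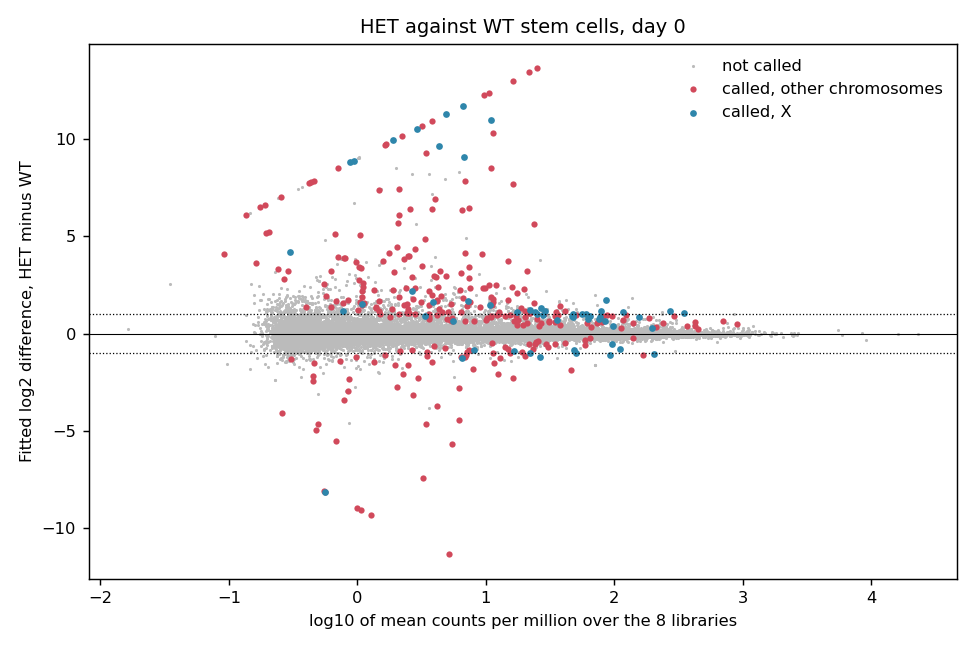
Fitted log2 difference (HET minus WT, vertical axis) against the log10 mean CPM over the 8 libraries (horizontal axis), 1 point per gene tested; genes with no count in either group are not drawn. Called genes are red, or blue on chromosome X; dotted lines mark a change of 1 on the log2 scale. The 249 higher genes outnumber the 84 lower ones, and the straight upper edge holds genes with 0 counts in WT.

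The largest rises were genes without transcripts in WT. For 24 called genes the 4 WT libraries held 3 or fewer counts in all while the HET mean was at least 1 CPM, from 1.42 to 50.4 CPM. Of these, 12 lay on autosomes, 9 on chromosome X and 3 had no entry in GENCODE 29. PUS7L, a pseudouridine synthase family member, was at 0 CPM in each WT library and at 46.3, 55.9, 50.6 and 49.0 CPM in HET replicates 1 to 4, at least 604-fold higher when WT is set to the floor of 3 counts per library. TYW3, an enzyme of wybutosine synthesis in phenylalanine tRNA, was at 0 in each WT library and at 43.5, 41.7, 46.2 and 42.7 CPM in HET (at least 521-fold). CRYZ, the quinone reductase zeta-crystallin, was at 0 in WT and at 31.4, 33.9, 30.9 and 33.7 CPM in HET (at least 388.7-fold). In all 3 the HET libraries lay close together and far from WT. The 12 WT libraries of the 3 days held 0 counts of PUS7L and CRYZ and 1 count of TYW3.

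Some of these genes were head-to-head neighbours that were silent or expressed as a pair. CRYZ and TYW3 lie back to back on chromosome 1, PUS7L and IRAK4 (a kinase of interleukin 1 and Toll-like receptor signalling) on chromosome 12, and FAM174A and its divergent transcript FAM174A-DT on chromosome 5. IRAK4 was at 0 CPM in each WT library and at 3.25, 3.77, 3.3 and 3.05 CPM in HET (at least 40-fold). FAM174A was at 0 in WT and at 1.08, 1.72, 1.21 and 1.65 CPM in HET (at least 17-fold). The windows below are shown because each spans the RefSeq start of 1 member of a pair and the GENCODE start of the other. A single stretch of DNA thus faces 2 genes with the same pattern. They are RefSeq promoters of GRCh38.p14 that run from 250 bases before to 50 bases after the named gene's start, read 5′ to 3′ on its own strand, with every CG dinucleotide, the site of DNA methylation, in capitals.
CRYZ (chr1:74733001-74733300, minus strand): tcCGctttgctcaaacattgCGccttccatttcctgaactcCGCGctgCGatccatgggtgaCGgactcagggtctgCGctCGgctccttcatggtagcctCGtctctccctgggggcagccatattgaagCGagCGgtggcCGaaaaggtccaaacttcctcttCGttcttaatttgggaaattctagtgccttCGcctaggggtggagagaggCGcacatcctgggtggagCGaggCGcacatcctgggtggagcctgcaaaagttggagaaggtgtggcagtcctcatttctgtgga
IRAK4 (chr12:43758701-43759000, plus strand): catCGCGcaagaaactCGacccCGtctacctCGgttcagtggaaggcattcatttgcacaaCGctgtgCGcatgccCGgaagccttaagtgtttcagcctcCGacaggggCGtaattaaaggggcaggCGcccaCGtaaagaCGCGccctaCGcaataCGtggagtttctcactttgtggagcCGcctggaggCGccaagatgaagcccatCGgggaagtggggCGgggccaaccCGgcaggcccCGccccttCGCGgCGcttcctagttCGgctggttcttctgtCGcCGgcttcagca
FAM174A (chr5:100535124-100535423, plus strand): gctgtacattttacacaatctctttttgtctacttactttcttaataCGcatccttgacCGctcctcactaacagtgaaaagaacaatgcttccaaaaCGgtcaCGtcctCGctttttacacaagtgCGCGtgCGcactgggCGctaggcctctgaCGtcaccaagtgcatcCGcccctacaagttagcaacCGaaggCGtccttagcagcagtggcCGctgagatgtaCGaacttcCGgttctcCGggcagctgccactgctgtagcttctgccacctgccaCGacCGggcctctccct
The GENCODE start of the partner fell inside the window each time. Measured from the RefSeq start of the named gene, TYW3 starts 102 bases from CRYZ, PUS7L 134 bases from IRAK4 and FAM174A-DT 112 bases from FAM174A. Starts differ between the annotations: in GENCODE, CRYZ starts at 74733408, outside its window, and overlaps TYW3. The windows hold 17, 28 and 19 CG, and 46%, 26.2% and 42.9% of the 35116 promoters in the RefSeq table hold as many or more. CG reads the same on both strands. Of the 19 genes of the set with a symbol, 11 matched the table, with 3 to 37 CG and a median of 17, against a median of 14 over all promoters and 24 over those of the tested genes. DNA methylation was not measured in these libraries.

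The X-linked members of the set included a block on the short arm. All 5 genes tested from MAGEH1 to KLF8 were at or near 0 in WT. MAGEH1, of the MAGE family, was at 0 CPM in each WT library and at 14.8, 12.5, 11.8 and 14.1 CPM in HET (at least 159-fold). KLF8, a Krüppel-like repressor, was at 0 in WT and at 6.94, 12.4, 8.73 and 10.9 CPM in HET (at least 116.5-fold). USP51, a histone H2A deubiquitinase, had 1 WT count and was at 20.4 to 23.3 CPM in HET, a ratio of 3142 with an exact 95% interval of 563 to 124100 that covers counting error only. RRAGB, a Rag GTPase of amino acid sensing, was at 0 in WT and 5.01 to 7.24 CPM in HET. EDA2R, a receptor for ectodysplasin, lay further along the chromosome, with 1 WT count and 5.35 to 15.4 CPM in HET. On autosomes, ALG10, a glucosyltransferase of N-glycan assembly, had 2 WT counts and was at 20.2 to 26.2 CPM in HET, a ratio of 1607 (interval 444.5 to 13280).

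At most of these genes the KO mean lay near that of HET. It was 46.9 CPM for PUS7L, 43.7 for TYW3, 31.9 for CRYZ, 14.3 for MAGEH1, 21.7 for USP51 and 18.4 for ALG10. Of the 24, only ECHDC3 differed between HET and KO: it was at 0, 0.0499, 0 and 0.0322 CPM in WT, at 3.81, 4.26, 4.18 and 4.59 CPM in HET and at a mean of 0.0243 CPM in KO (edgeR adjusted p = 1.9e-06 for HET against KO). A call missing for the other 23 does not show that HET and KO are equal. In the separate day 3 and day 7 libraries, the WT mean of each of the 24 was at most 0.0896 CPM. PUS7L was at 22.1 CPM in HET at day 3 and 23.99 CPM at day 7.

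**Figure D2:**
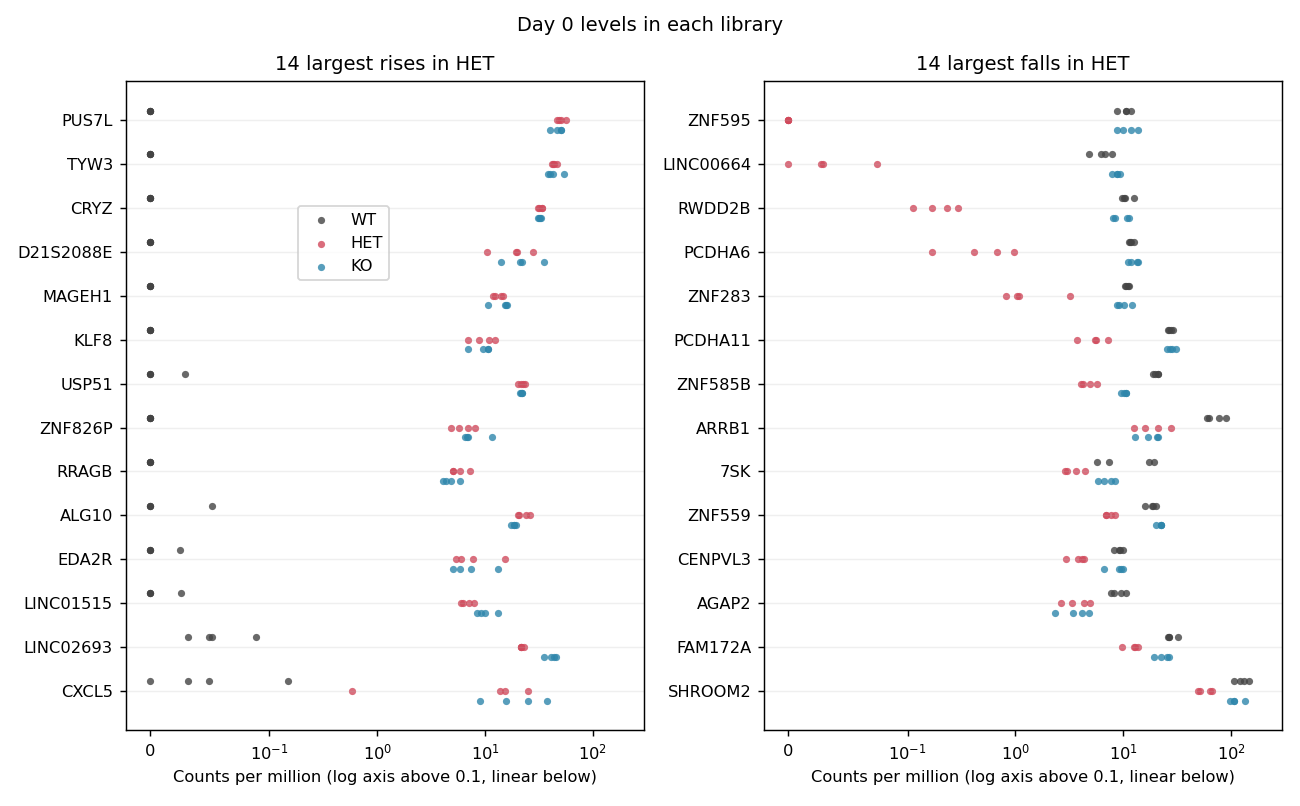
CPM in each day 0 library (horizontal axis, logarithmic above 0.1 and linear below, so that 0 can be drawn) for the 14 largest rises (left) and the 14 largest falls (right) among called genes with at least 5 CPM in the higher group. Each dot is a library: WT grey, HET red, KO blue. In the rises KO dots lie near or above HET; in most falls they lie near WT.

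Other large rises differed in how KO behaved. PKIB, an inhibitor of protein kinase A, was at 0.148, 0.299, 0.0516 and 0.0965 CPM in WT, at 28.7, 29.4, 33.4 and 37.7 CPM in HET and at a mean of 0.444 ± 0.233 CPM in KO. HET was 216.7-fold above WT (log2 7.71, SE 0.44, adjusted p = 3.29e-07), and HET and KO differed by 6.17 on the log2 scale (adjusted p = 1.85e-06). SYT11, a synaptotagmin of vesicle and membrane traffic, was at 2.37, 5.31, 3.79 and 4.76 CPM in WT and 37.3, 45.8, 32.3 and 35.8 CPM in HET, with KO between them at 11.22 ± 3.56 CPM (HET against KO, adjusted p = 0.0029). LINC02693 was at 0.0322 to 0.0889 CPM in WT and 21.5 to 22.7 CPM in HET, and higher again in KO at 41.2 ± 4.42 CPM (HET against KO, adjusted p = 1.8e-04). CXCL5, a neutrophil chemokine, rose with a wide spread, at 0.586, 25.2, 13.8 and 15.2 CPM in HET against at most 0.148 CPM in WT (adjusted p = 0.0026). HET replicate 1 held the low value, and KO was at 21.8 ± 12.5 CPM.

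Several of the largest falls were at genes where KO lay near WT. ZNF595, a KRAB zinc finger gene at the tip of chromosome 4, was at 11.8, 10.6, 10.6 and 8.78 CPM in WT and at 0 in every HET library, at least 104.7-fold lower, while KO was at 11.1 ± 2.14 CPM. RWDD2B, a gene of chromosome 21, was at 9.66, 12.6, 10.1 and 10.4 CPM in WT, at 0.234, 0.112, 0.292 and 0.168 CPM in HET and at 9.62 ± 1.7 CPM in KO (HET against WT, log2 −5.70, SE 0.25, adjusted p = 3.6e-08). ZNF283 was at 10.4 to 11.3 CPM in WT, 3.22, 1.08, 1.04 and 0.812 CPM in HET and 9.97 ± 1.46 CPM in KO. MRPL3, a protein of the large mitochondrial ribosomal subunit, was at 264, 223, 216 and 214 CPM in WT, 105, 102, 106 and 111 CPM in HET and 212 ± 33.7 CPM in KO. NDUFAF1, an assembly factor of respiratory complex I, showed the same step, from 15.1 ± 0.867 CPM in WT to 7.55 ± 0.501 in HET with KO at 13.0 ± 0.839. For these 5 genes the difference between HET and KO was called as well. MRPL3 and NDUFAF1 were chosen after their values were seen.

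Other falls were shared with KO. ARRB1, which encodes β-arrestin 1, was at 62.4, 90.5, 59.5 and 77.6 CPM in WT and 27.9, 21.1, 15.95 and 12.5 CPM in HET (log2 −1.89, SE 0.24, adjusted p = 5.0e-04), with KO at 17.8 ± 3.67 CPM. ZNF726 was at 4.15, 1.45, 2.73 and 1.96 CPM in WT and at 0 in every HET library (at least 25.9-fold lower), with KO at 0.0181 CPM. AGAP2, a GTPase-activating protein, was at 7.69 to 10.7 CPM in WT and 2.63 to 4.9 CPM in HET, with KO at 3.69 CPM; its call was lost in 4 of 23 alternatives. ZNF585B was intermediate in KO, with 20.2 ± 1.05 CPM in WT, 4.74 ± 0.771 in HET and 10.3 ± 0.511 in KO.

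Set against KO over all 333 called genes, HET differed at 81, compared with 0.856% of all genes tested. These were 38 of the 249 higher genes (15.3%) and 43 of the 84 lower genes (51.2%) in either direction. Over all genes tested, 0.333% were higher in HET than in KO and 0.524% lower. At all 43 lower genes KO was above HET, and at 33 of the 38 higher genes KO was below HET. The HET libraries enter both comparisons, so the agreement in direction is in part built in and is given as a description.

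Chromosome X held more called genes than any other chromosome, 56 of 683 tested (8.2%, against 1.63% overall); the count was 53 without HET replicate 1 and between 43 and 79 over the other alternatives. Of the 56, 44 were higher and 12 lower, and 30 also differed between HET and KO. Those 30 had a median absolute difference of 1.02 on the log2 scale, all between 0.5 and 1.5. None of them was called between KO and WT, where 2.08% of all genes were (1.66% higher in KO and 0.416% lower). The 30 were selected by HET differing from both WT and KO, so KO lying near WT is in part built in. None of 30 is also near that small background share, so this is a description. Many of the 30 had neighbours that moved the same way, while CENPVL3, CHM and LRCH2 stood alone. The median over all X-linked genes with at least 1 CPM was 0.025.

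Among the stretches of chromosome X described here, the one with the most called genes lay on the distal long arm. From PHF6 to ARHGEF6, 21 genes were tested and 10 were called, all higher in HET and all different from KO, and the median of the 21 was 0.66. PHF6, a chromatin-associated PHD finger protein, was at 157, 153, 173 and 195 CPM in WT and 368, 345, 411 and 362 CPM in HET, with KO at 182.5 ± 26.6. HPRT1, the purine salvage enzyme, was at 40.6, 31.8, 36.01 and 39.3 CPM in WT and 64.7, 66.6, 77.6 and 90.0 CPM in HET, with KO at 35.5 ± 6.91. Others were PABIR2, PABIR3, MOSPD1, INTS6L, MAP7D3 and ARHGEF6, between 0.66 and 1.48 on the log2 scale. PABIR3 lost its call in 17 of 23 alternatives. PABIR2 overlaps PABIR3 in the annotation, and the use of strand in counting is not given in the sources used here, so reads of such a pair may be shared.

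Several smaller stretches behaved alike. XIAP, an inhibitor of caspases, was at 70.5 to 80.5 CPM in WT, 145 to 171 CPM in HET and 71.2 ± 2.29 CPM in KO. Its neighbour STAG2, a cohesin subunit, was at 203 to 248 CPM in WT, 439 to 496 CPM in HET and 217 ± 13.7 CPM in KO. TCEAL8, TCEAL9 and BEX3 rose by 0.85 to 1.13 on the log2 scale, and SLC35A2, OTUD5 and TFE3 by 0.66 to 0.95, with KO near WT each time. The neighbours ZDHHC9, UTP14A and AIFM1 were also called higher, by 0.41 to 0.91, but none of these 3 was called between HET and KO. Near the end of the short arm the step went down. From NLGN4X to SHROOM2, 5 of 8 tested genes were called, all lower in HET and all different from KO. NLGN4X, a postsynaptic neuroligin, was at 292, 228, 270 and 299 CPM in WT and 92.7, 122, 139 and 174 CPM in HET, with KO at 305 ± 71.2. PUDP, a pseudouridine phosphatase, fell from 66.5 ± 1.69 to 33.4 ± 3.83 CPM, STS, steroid sulfatase, from 21.5 ± 2.41 to 11.5 ± 1.94, TBL1X, a corepressor subunit, from 142 ± 12 to 81.6 ± 13.4, and SHROOM2, an actin regulator, from 127 ± 16.9 to 57.8 ± 8.59. CHM, a Rab escort protein, and LRCH2 also fell by about this step elsewhere on the chromosome, by 0.87 and 1.00 on the log2 scale. These stretches were delimited after their values were seen, so their counts describe them and test nothing.

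**Figure D3:**
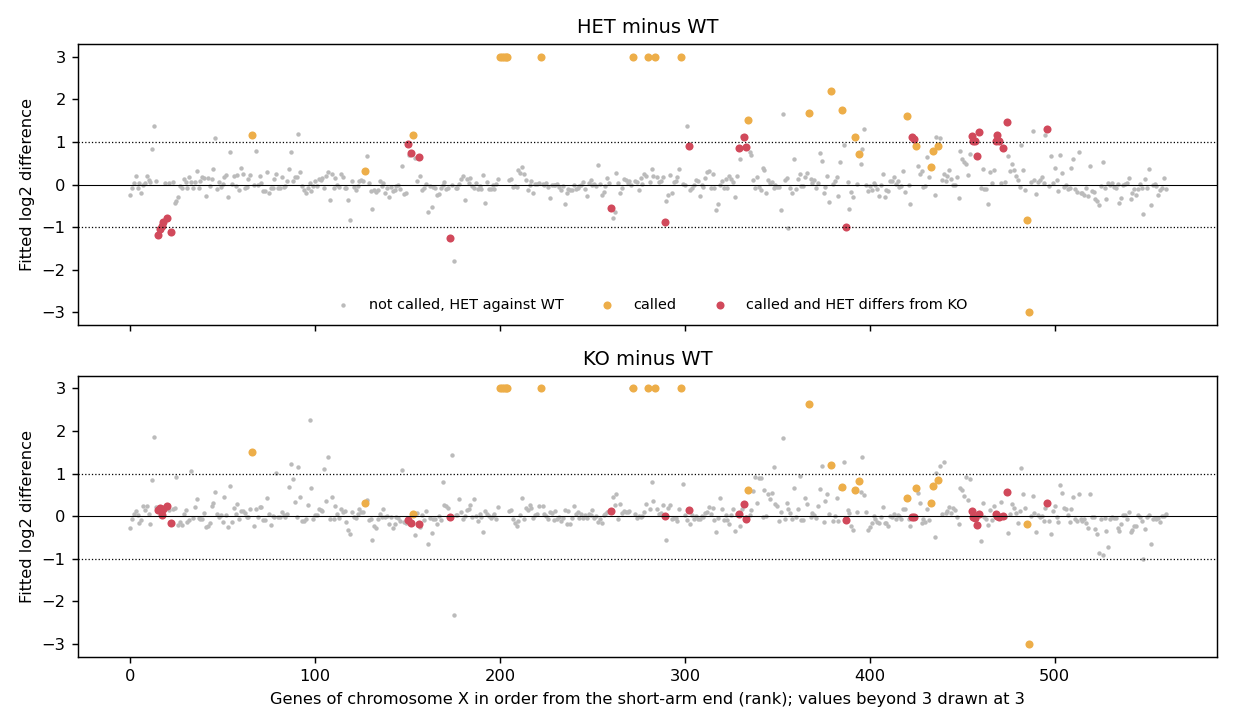
Fitted log2 differences (vertical axes) for genes of chromosome X with at least 1 CPM in any day 0 group, in chromosomal order (horizontal axis, rank), for HET minus WT (top) and KO minus WT (bottom). Colours are the same genes in both panels: called in HET against WT (yellow), called and also different from KO (red), not called (grey). Red genes sit near 1 or −1 at the top, many of them in strings, and near 0 at the bottom. Red genes were selected by HET differing from both WT and KO, so their place at the bottom is in part built in. The yellow genes at the upper edge are high in both.

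A step near 1 on the log2 scale was also seen on autosomes. KO was near WT for some of these genes, such as MRPL3, ZNF559 and PCDHA12, and near HET for others. TFCP2, a transcription factor, was at 33.0 to 35.4 CPM in WT, 63.8 to 68.7 CPM in HET and 67.2 ± 1.48 CPM in KO. PTCD3, a mitochondrial translation protein, was at 64.9 to 68.7 CPM in WT, 119 to 130 CPM in HET and 125 ± 5.65 CPM in KO. COASY, the last enzyme of coenzyme A synthesis, went from 24.1 ± 1.01 to 45.5 ± 3.9 CPM with KO at 43.1 ± 2.94, and BTF3, a nascent polypeptide associated factor, from 205 ± 17.1 to 380 ± 5.6 CPM with KO at 406 ± 56.8. These 4 genes were picked after their values were seen. Medians by chromosome, over genes with at least 1 CPM, lay between −0.049 (chromosome 19) and 0.049 (chromosome 4), a range of 0.098.

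Chromosome 19 had the next largest count, 44 of 1333 tested genes (3.3%), most of them zinc finger genes. KRAB zinc finger proteins bind DNA through arrays of fingers and recruit TRIM28 to silence transposable elements. In the stretch from ZNF441 to ZNF443 on the short arm, delimited after its values were seen, 17 of 22 tested genes were called, every 1 of them higher in HET, with differences from 1.36 to 4.14 on the log2 scale. ZNF69 was at 6.67, 6.16, 8.2 and 5.82 CPM in WT and 26.0, 34.8, 40.1 and 30.9 CPM in HET. ZNF700 was at 5.42, 3.77, 5.18 and 4.34 CPM in WT and 18.9, 15.8, 17.9 and 16.8 CPM in HET. ZNF433 had the largest ratio of the stretch, at 0.129 to 0.258 CPM in WT and 3.08 to 3.8 CPM in HET, 18.1-fold. ZNF44 and ZNF442 rose 7.75-fold and 7.35-fold, from 0.911 ± 0.363 to 7.06 ± 0.591 CPM and from 0.981 ± 0.201 to 7.21 ± 1.03 CPM. KO was as high, with 41.3 ± 1.63 CPM for ZNF69 and 18.6 ± 1.39 CPM for ZNF700, and none of the 17 differed between HET and KO. Overlapping transcripts such as ZNF433-AS1 and ZNF433 cannot be told apart without strand.

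Over all 546 tested genes whose symbol starts with ZNF, 44 were called (8.06%, against 1.63% of all genes tested), 35 higher and 9 lower. The median difference of the 546 was 0.06 against 0.007 for all genes. This family was chosen after its values were seen. ZNF737, elsewhere on the short arm of chromosome 19, went from 0.155 ± 0.185 to 12.8 ± 0.765 CPM with KO at 23.7 ± 2.94. Its neighbour ZNF826P, a transcribed pseudogene, went from 0 to 4.78 to 8.02 CPM (at least 76.1-fold). Falls among them were ZNF595 and ZNF726 above, and ZNF559, from 18.4 to 7.5 CPM with KO at 21.8.

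Clustered protocadherins, cell adhesion proteins whose isoforms are chosen by alternative promoters on chromosome 5, differed between HET and WT at single members. The clusters were chosen after their values were seen, so their counts are descriptions. In the alpha cluster, 5 of 16 tested genes were called, against 1.63% of all genes tested. All 5 differed from KO, as did 0.856% of all genes tested. PCDHA6 was at 11.9, 12.5, 11.6 and 11.3 CPM in WT and 0.41, 0.971, 0.668 and 0.168 CPM in HET, 21.4-fold lower, with KO at 12.5 ± 1.17. PCDHA11 was at 26.0 to 28.8 CPM in WT and 3.75 to 7.24 CPM in HET, with KO at 27.9 ± 2.14. PCDHA2 and PCDHA3, at low level, also fell, while PCDHA12 rose, from 12.6 to 16.8 CPM in WT to 22.8 to 29.2 CPM in HET, with KO at 13.8 ± 0.981. None of the 15 beta genes was called. In the gamma cluster 2 of 24 were called, both higher in HET and KO: PCDHGC3 went from 0.914 ± 0.334 to 46.3 ± 13.9 CPM (KO 47.5 ± 13.0) and PCDHGA10 from 3.59 ± 0.914 to 20.5 ± 4.92 CPM (KO 18.2 ± 2.83). Alpha and gamma members share their last exons, so the split of reads between isoforms depends on the authors' estimation.

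**Figure D4:**
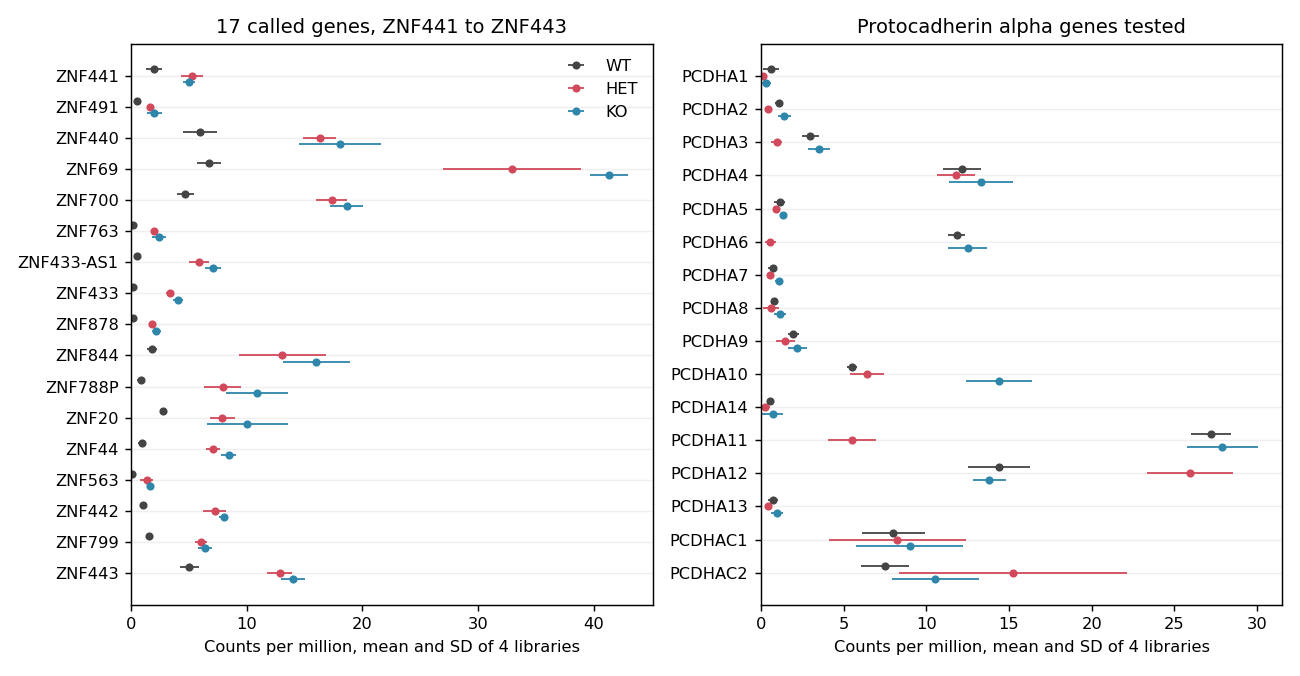
Mean and SD over 4 libraries of CPM (horizontal axes) in WT (grey), HET (red) and KO (blue) at day 0, for the 17 called genes from ZNF441 to ZNF443 on chromosome 19 (left) and the 16 tested protocadherin alpha genes (right), in chromosomal order. In the zinc finger stretch HET and KO both lie above WT; for PCDHA6, PCDHA11 and PCDHA12 only HET leaves the level of WT.

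Of 519 genes tested from 30 lists of pathways and cell types, 14 were called (2.7%, against 1.63% of all genes), 12 higher and 2 lower. None of the 22 pluripotency genes was called and their median was at 0 on the log2 scale, with LIN28A, an RNA-binding protein, at 1811 ± 185 CPM in WT and 1826 ± 248 in HET, and PODXL, a surface sialomucin, at 1435 ± 58.0 and 1502 ± 297. None was called among neural progenitor (17 tested), pan-neuronal (18), neural crest (11), amnion and trophectoderm (9), fibroblast and stromal (13), Notch (18), circadian clock (21), DNA methylation (16), Polycomb and Trithorax (24), proliferation (20), glycolysis (20), cholesterol synthesis (23) or extracellular matrix genes (23), or among the 20 tested neighbours of RAI1 in 17p11.2 and the 19 in 20q11.21. The summed fibroblast and stromal markers were highest in replicate 2 of both groups, at 1939 CPM in WT and 2338 CPM in HET, against 748.5 to 953.4 and 706 to 1138 CPM in the other libraries. ZFP42, a pluripotency reporter gene, was at 14.3, 0.0998, 0.0258 and 0 CPM in WT and 27.2, 42.3, 41.8 and 85.4 CPM in HET; the groups did not overlap, but WT replicate 1 stood apart and the gene was not called (adjusted p = 0.209).

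The 14 called list genes were 6 KRAB zinc finger genes, PUS7L, TYW3, GRB10, CCNG1, and SP5, EOMES, INHBA and FGF17, of the WNT, mesendoderm (1 called of 8 tested), NODAL and FGF lists. EOMES was also in the list of proneural factors and targets (1 called of 11 tested). SP5, a WNT target, was at 0, 0.0748, 0.206 and 0 CPM in WT and 12.3, 1.64, 1.75 and 0.728 CPM in HET (log2 5.72, SE 1.09, adjusted p = 0.016). EOMES, a T-box factor of mesendoderm, was at 0.129 to 0.749 CPM in WT and 3.31, 1.79, 1.59 and 1.01 CPM in HET (adjusted p = 0.032). INHBA, the activin A subunit, was at 0.0643 to 0.299 CPM in WT and 0.439 to 1.53 CPM in HET, and FGF17 at 0 to 0.0998 and 0.196 to 0.673 CPM. Outside the lists, CYP26A1, which degrades retinoic acid, was at 0.237, 1.4, 1.55 and 1.35 CPM in WT and 5.09 to 13.5 CPM in HET, and its neighbour CYP26C1 at 0.118 to 0.542 and 10.3, 1.83, 1.8 and 5.24 CPM. KO means were 1.6 CPM for SP5, 1.32 for EOMES, 0.646 for INHBA and 0.325 for FGF17. They were 12.7 CPM for CYP26A1 and 0.158 for CYP26C1. Among these genes only CYP26C1 was called between HET and KO (edgeR adjusted p = 0.0062). HET replicate 1, the HET library with the most HOX transcripts, was the highest of the HET and WT libraries for SP5, EOMES, CYP26A1, CYP26C1 and FGF17. Without it EOMES and FGF17 lost their calls, and SP5, CYP26A1 and CYP26C1 did not. Leaving out single WT libraries ended the calls of EOMES, FGF17, SP5, INHBA and, without WT replicate 4, CYP26A1 (adjusted p = 0.051). EOMES was also lost without HET replicate 2 or 3, and INHBA without HET replicate 2 or 4. No HOX gene was called (9 tested). The part of that library's mixed markers in these results was not tested beyond leaving it out.

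In several lists most members had a positive difference, and most did not pass the test. This held for 16 of 17 neural progenitor markers (median 0.90), 7 of 8 mesendoderm markers (1.42), 9 of 11 neural crest markers (0.45) and 25 of 29 KRAB zinc finger genes (0.15). The list medians include HET replicate 1, which had the highest mesendoderm sum, and are given only with it. All 21 BMP pathway genes had a positive difference, with a median of 0.55, and 19 of 21 p53 targets, with a median of 0.44. Among all genes tested 51.5% were positive. Other lists leaned the other way. Positive were 3 of 11 proneural factors and targets (median −0.41) and 6 of 20 proliferation genes (−0.03). So were 7 of 20 glycolysis genes (−0.08) and 5 of 19 genes of 20q11.21 (−0.07). CCNG1, cyclin G1, was the sole call among the p53 targets, at 299 to 347 CPM in WT and 409 to 421 CPM in HET (log2 0.40, SE 0.09, adjusted p = 0.038), and it lost its call in 11 of 23 alternatives. BMP2 was at 2.87 to 3.41 CPM in WT and 4.42 to 11.24 CPM in HET (adjusted p = 0.059), and CDKN1A, the p21 inhibitor, at 3.05 to 13.6 and 6.44 to 42.9 CPM (adjusted p = 0.508), with the highest value in HET replicate 2. Of 29 imprinted genes tested, 1 was called: GRB10, a receptor adaptor, went from 102.6 ± 4.4 to 122.5 ± 4.53 CPM (log2 0.27, adjusted p = 0.014), a call lost in 7 of 23 alternatives.

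Many day 0 differences were found again after induction, in libraries that the day 0 test did not use. Of the 293 called genes tested at day 3, 147 (50.2%) were called in the same direction and 1 in the opposite one, against 3.28% of all genes called at day 3. Of the 292 tested at day 7, 179 (61.3%) were called in the same direction and 7 in the opposite one, against 14.4%. Called genes near 0 in WT entered these tests only through their level in the mutant libraries. By direction, 111 of 215 higher genes (background 2.52%) and 36 of 78 lower genes (0.761%) were called again at day 3, and 141 of 215 (8.31%) and 38 of 77 (6.1%) at day 7. In all, 123 genes were called in the same direction on all 3 days, 95 higher and 28 lower. PKIB stayed at 15.5 CPM in HET against 0.156 in WT at day 3 and 21.9 against 0.327 at day 7, and RWDD2B at 0.197 against 7.26 and 0.341 against 4.9 CPM. The genes that reversed by day 7 were GJA1, DACT1, P3H2, SERINC5, KNTC1 and COL13A1, higher in HET at day 0, and SYT5, lower. GJA1, a gap junction protein of the connexin family, was at 857 against 546.5 CPM at day 0 and at 0.803 against 15.6 CPM at day 7 (log2 −4.34, adjusted p = 7.7e-04). DACT1, a modulator of WNT signalling, was at 16.5 against 3.25 CPM at day 0 and at 17.1 against 99.5 CPM at day 7. ARRB1 was not called on either later day.

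**Figure D5:**
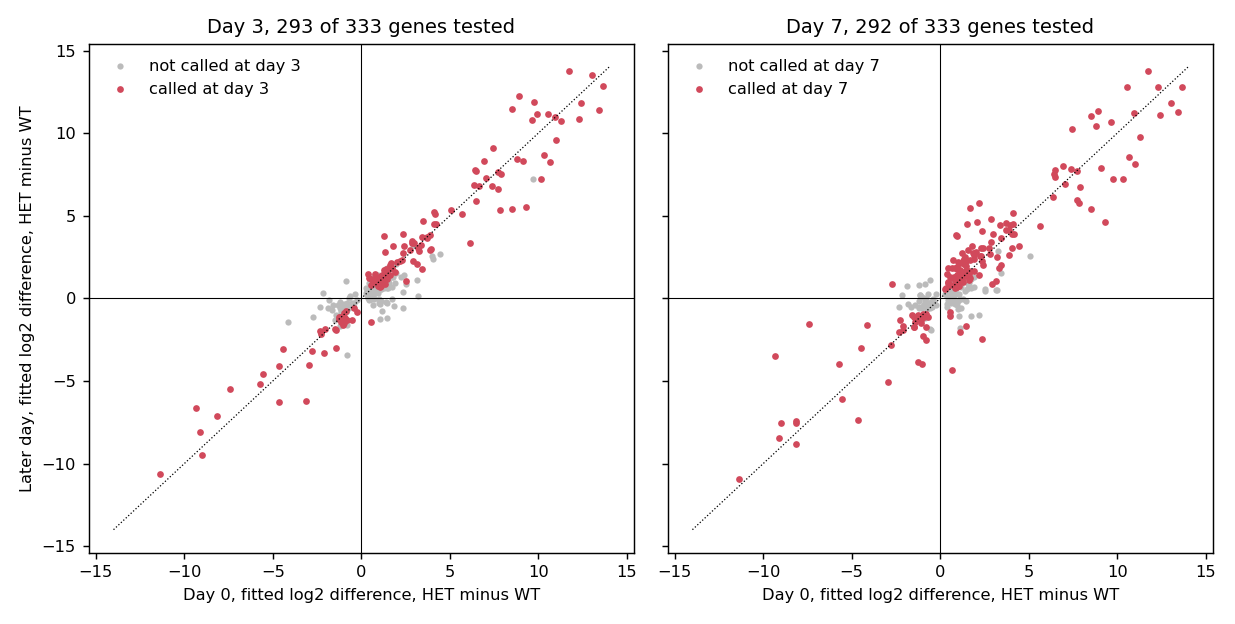
Fitted log2 difference, HET minus WT, at day 3 (left) and day 7 (right) on the vertical axes against that at day 0 on the horizontal axes, for the 333 genes called at day 0 that were tested on the later day. Red genes were called on the later day and grey ones were not; the dotted line marks equal differences. Large differences lie along the line, and 1 gene at day 3 and 7 at day 7 are called on the opposite side of 0.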

How the data were processed

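Per the labels' protocols, ribosomal RNA was removed from total RNA and libraries were read in pairs of 151 bases. The authors deposited expected counts per gene, whole numbers in every cell, with TPM and FPKM values. The submitters' processing notes name cutadapt 4.8, STAR 2.7.8a, RSEM 1.3.3 and GRCh38. The annotation release and the use of strand are not given in the sources used here. Of the gene identifiers, 92.9% matched GENCODE 29, which gave positions and biotypes. Rows for 4 reporter sequences, at most 0.0171% of a day 0 library, were left out of totals and tests.

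CPM values are counts scaled to a library's gene total. HET was compared with WT in edgeR 4.0.16 (R 4.3.3) on the 12 libraries of a day: TMM scaling, filterByExpr, quasi-likelihood F tests and Benjamini-Hochberg adjustment. Expected counts were used as deposited, since rounding leaves whole numbers unchanged. Folds against groups at 0 used a floor of 3 counts per library. Intervals and floors cover counting error only. Named genes were RAI1, PHF14 and TCF20, the 14 largest rises and 14 largest falls (at least 5 CPM, groups not overlapping), called list members (up to 4 per list), the 2 most abundant members of other lists, and called neighbours within 200 kb; other called genes in the text were chosen after their values were seen. Some genes, and results that need them, are not reported here. Members, lists and rules were chosen with earlier results of these data known. Alternatives were DESeq2 1.42.0, its size factors, library size alone, limma 3.58.1 on log2 of the deposited TPM plus 1 or 0.1, other filters and library sets, a covariate for 5 small structural RNAs, a block on replicate number, and fits without single replicates.

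On simulated counts over 20088 genes, the HET against WT fit recovered 71% of genes changed 2-fold and 96% of those changed 4-fold, with 6.7% false among its calls. DESeq2 recovered 84% and 98% with 21.2% false. The changed genes were drawn only from well-counted genes, so recovery at low level was not examined. Counts were drawn independently for each library, without any likeness between same-numbered replicates.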

Additional observations from a re-analysis of the deposited data

Results flagged for a closer look

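The difference between HET and KO was called at 81 of the 333 genes that HET and WT differ at, by the HET minus KO term of the same fit.

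Among 49 groups of 4 libraries examined for the largest rises and falls and for RAI1, 7 held a library far from the other 3, where chance gives about 2.5. In WT, 1 or 2 counts set apart USP51 (0.0296 CPM in replicate 1), ALG10 (0.0516 in replicate 3), EDA2R (0.025 in replicate 2) and LINC01515 (0.0258 in replicate 3). The other WT libraries were at 0 for these genes. Any count beside libraries at 0 stands apart in this way, so the 7 cannot be read as an excess over 2.5. FAM172A was at 32.1 CPM in WT replicate 1 and 25.8 to 26.8 in the others. In HET, LINC02693 was at 22.7 CPM in replicate 2 against 21.5 in the other libraries, and ZNF283 at 3.22 CPM in replicate 1 against 0.812 to 1.08.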

How the results depend on the processing

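None of the 333 genes called at day 0 changed direction under any of the 23 alternatives in which it was tested. The number of calls was 649 with DESeq2, 184 with limma on log2(TPM + 1) and 689 with the replicate block, and 239 to 416 when a replicate was left out, lowest without WT replicate 3. Calls repeated at day 3 numbered 241 with DESeq2, 60 and 18 with limma at pseudocounts of 0.1 and 1, 276 with the block, and 126 to 169 with a replicate left out. At day 7 they numbered 284, 113, 55, 273 and 154 to 205. Calls that differ between HET and KO ranged from 75 to 87 with a replicate left out. Called list genes, 14 in the fit reported, numbered 37 with DESeq2, 24 with all 36 libraries, 8 with limma on log2(TPM + 1), 46 with the block, and 8 to 19 with a replicate left out. The RAI1 difference stayed positive and uncalled, at 0.057 to 0.34, and the chromosome range was 0.069 to 0.117. TCF20, not called, became positive with limma (0.051 and 0.048) and without HET replicate 2 (0.026) or WT replicate 1 (0.02), its values with a replicate left out being −0.031 to 0.026. The cause of these changes was not tested.

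Same-numbered HET and WT libraries deviated together from their group means with r of −0.047, 0.638, 0.296 and 0.533 across genes, so the numbers were not taken as a pairing. HET replicates 2, 3 and 4 correlated best with the WT library of their number, and HET replicate 1 with WT replicate 3. In log2 levels, HET replicates 2 and 4 were closer to the KO library of their number (r = 0.992 and 0.9939) than to any HET library (at most 0.9885 and 0.9913). For replicate 1 of HET and KO, r was 0.9765. What the replicate numbers stand for was not tested. Of 133 named called genes, 78 lost it under none of the alternatives in which they were tested, which for a few were fewer than 23. Counts for chromosome X, for genes silent in WT, for the zinc finger stretch and for protocadherins were repeated as alternatives chosen after seeing the data; only protocadherin alpha calls moved by over 1.5 times, to 2 with limma on log2(TPM + 1).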

Other observations

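The deposited table counts a tdTomato reporter. In CPM it was at 162, 164, 170 and 132 in WT replicates 1 to 4, at 106, 82.2, 81.6 and 70.9 in HET, and at 51.1, 41.3, 49.8 and 35.2 in KO. The HET and WT libraries did not overlap (means 85.1 ± 14.6 and 157 ± 16.8, SD, n = 4; exact two-sided permutation p = 0.0286, the smallest that 4 against 4 allows). The eGFP row held 0 to 35 counts per library, and the Cre and mCherry rows held 0 in all 12 day 0 libraries. The labels do not say which construct carries the reporter.

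XACT, a long noncoding RNA of chromosome X that is expressed in pluripotent cells, was at 40.6, 39.8, 50.6 and 29.8 CPM in WT and 51.3, 189, 170 and 123 CPM in HET (log2 1.74, edgeR adjusted p = 0.042), with KO at 63.4 ± 28 CPM; it was chosen after its values were seen. NLRP2 was at 96.5 to 109 CPM in WT and 75.2 to 98.7 CPM in HET (adjusted p = 0.417) and at a mean of 0.0092 CPM in KO.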
